A study of Mus musculus with 8 samples.

Results

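The RNAs described here encode the egg side of sperm recognition and fusion in the mouse. They are the egg coat genes *Zp1*, *Zp2* and *Zp3*, the cortical granule protease gene *Astl*, its inhibitor gene *Fetub*, and the egg membrane genes *Cd9*, *Cd81* and *Izumo1r*. These 8 genes were taken by symbol from the deposited expression tables, out of 15962 genes listed in all 8 libraries. All 8 were among the 13968 genes tested. The study's methods name superovulated female ICR (Crl:CD1) mice, an outbred stock, at 6 weeks of age. Control oocytes at the germinal vesicle stage (GV, the arrested prophase oocyte) and at metaphase II (MII, the mature egg, reached in culture) are labelled WT. The other 2 groups were MII oocytes whose GV oocytes had been injected with capped Myc-tagged cRNA for BTG4. One received the wild-type protein (Btg4wt) and the other a mutant in which T145, S146 and S147 had been changed to alanine (Btg4tm). All injected oocytes also carried their own *Btg4* gene. Each group had 2 libraries of 15 oocytes, and the zona pellucida had been removed with pronase E before lysis.

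Smart-seq2 libraries were primed with oligo(dT), so a transcript is captured through its poly(A) tail. From these libraries a shorter tail cannot be told apart from fewer molecules. For *Zp3* the study also reported a poly(A) tail assay, in which tails shortened as control oocytes matured and this was blocked in Btg4tm. By RT-qPCR it reported the *Zp3* transcript as resistant to degradation in Btg4tm. Levels are given as scaled TPM, the length-corrected share of a library's transcripts after one scaling factor per library. Because of the correction for transcript length, levels of different genes can be set side by side, though capture through the tail may differ between genes. Nothing in the labels says that the 2 libraries of a group came from separate animals or cultures, so the p-values measure only the spread between these libraries. A gene was called when the Benjamini-Hochberg adjusted p of limma over all tested genes was under 0.05 and the absolute log2 fold change was over 1.

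Growing oocytes make large amounts of the zona pellucida glycoproteins and secrete them as a matrix around the cell, so that the coat is largely built before meiosis resumes. Sperm bind this coat through ZP2. After fertilization cortical granules release ovastacin, the product of *Astl*, which cleaves ZP2 and ends sperm binding. Fetuin-B, the product of *Fetub*, is best known as a liver plasma protein that inhibits ovastacin and so keeps the coat from hardening early. On the egg membrane the GPI-anchored protein JUNO, encoded by *Izumo1r*, binds IZUMO1 of the sperm, and the tetraspanins CD9 and CD81 support fusion. BTG4 is a maternal adaptor that brings the CCR4-NOT deadenylase to mRNAs during maturation.

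The marker genes in the libraries were those of oocytes. Of 17 oocyte markers, 16 were listed, and all 16 had more than 1 TPM in every library, while *Sohlh1* was not listed. Of 21 markers of cumulus and granulosa cells, 9 to 10 were listed per library. Their summed level was between 39.3 and 53.5 TPM in the Btg4tm libraries, which spans the range of the other groups. The highest of them was *Cyp19a1*, with 15.7 to 26.8 scaled TPM, and *Amh*, *Amhr2*, *Foxl2*, *Has2* and *Ptx3* were not listed. Of the 6 that were tested, *Krt8* and *Inha* were called lower in MII (24.0% of all tested genes) and higher in Btg4tm than in Btg4wt (18.1%). Most of the genes described here moved this way. The other 4 markers were called in neither comparison. Between MII and GV their log2 fold changes were 0.95 for *Kitl*, 0.63 for *Cyp19a1*, 0.27 for *Nr5a2* and −0.12 for *Star*. *Krt8* had 9.73 and 9.84 scaled TPM in GV, 0.614 and 0.401 in MII, 1.06 and 0.946 in Btg4wt, and 11.3 and 2.48 in Btg4tm. The part of other cells in the results below was not tested.

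*Btg4* itself had 5178 and 5510 scaled TPM in the libraries labelled Btg4wt and 3725 and 4068 in those labelled Btg4tm. Neither group exceeded the 5792 and 6003 of uninjected MII oocytes, so the injected RNA did not show in the level of this gene. The group names below are therefore the labels, which the expression values could not check. At the protein level, the study reported immunoblots in which both forms of BTG4 were overexpressed. It also remarked that the oocyte's own BTG4 seemed to be reduced.

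Most of the 8 RNAs fell between GV and MII and were higher with mutant than with wild-type BTG4. Those called both ways were *Zp1*, *Zp2*, *Zp3*, *Cd9*, *Izumo1r* and *Fetub*. Thus 6 of the 8 genes were called lower in MII, where 24.0% of all tested genes were called lower. The same 6 genes were called higher in Btg4tm than in Btg4wt, where the share over all tested genes was 18.1%. *Astl* was not called in either comparison. *Cd81* was called higher in MII, as were 12.5% of tested genes, from a level of a few TPM.

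The 3′ ends of these mRNAs are shown because the egg coat genes have some of the shortest 3′ untranslated regions (3′ UTRs) of the oocyte transcriptome. In the GENCODE M21 annotation of GRCm38 the 3′ UTR has 13 bases in *Zp3*, 34 in *Zp1* and 49 in *Zp2*, against a median of 909 over 11074 tested genes with a coding transcript. Only 1.66% of these genes had a shorter 3′ UTR than *Zp3*, 2.41% a shorter one than *Zp1* and 3.19% a shorter one than *Zp2*. These shares count genes annotated with a 3′ UTR of 0 bases as shorter. *Fetub* has 117 bases, *Izumo1r* 333, *Cd9* 395, *Cd81* 560 and *Astl* 877. A stretch of 30 bases around the polyadenylation signal AATAAA, the motif that directs cleavage and tailing of the nascent RNA, is given for each mRNA with the signal in capitals.
Zp3: tatcccttccgcAATAAAagaagaaactca
Zp1: ttaaatggactcAATAAAccattgtttgaa
Zp2: attggacttgcaAATAAAgagactgcagtt
Fetub: tgtagacaggctAATAAAgtgtgtcctttt
Izumo1r: catggtaccttcAATAAAaggctaggaaac
Cd9: aatttgatacatAATAAAagattataacag
Cd81: aaacagtcatttAATAAAggaggaaaaaaa
Astl: ggaaaaggtagaAATAAAgttgggtgtttg

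The signal began 18 bases before the transcript end in *Zp3*, 26 in *Zp1* and 38 in *Zp2*. In *Zp3* the TAA stop codon starts 16 bases before the end and thus lies inside the signal, so that the same letters end the reading frame and form the signal. All 8 mRNAs held AATAAA within their last 40 bases, as did 61.3% of the 11074 genes. Cytoplasmic polyadenylation elements were also searched, on the sense strand of the 3′ UTR. The letters TTTTAT were in none of the 8 genes and in 53.8% of all genes. TTTTAAT was in *Cd9* and *Cd81* and in 29.3% of all genes. A 3′ UTR of a few bases has little room for any motif, and such matches describe letters, not sites.

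**Figure D1:**
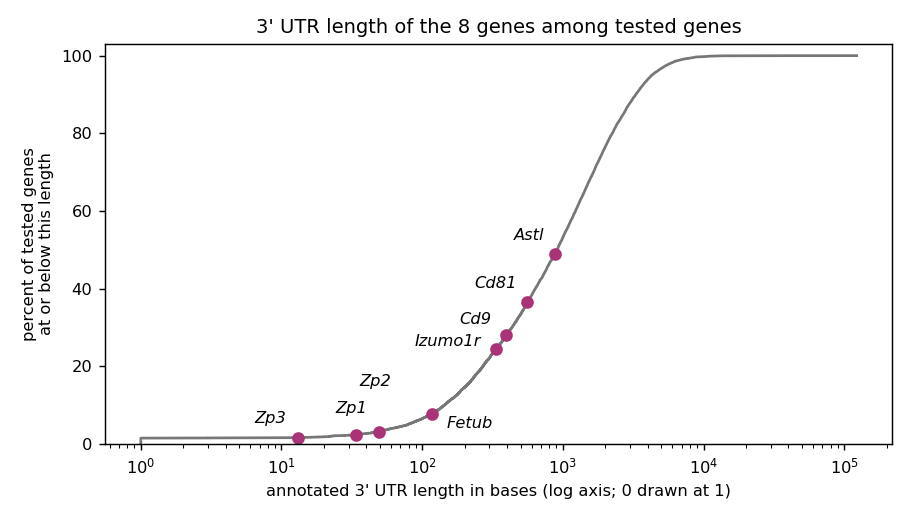
Cumulative distribution of annotated 3′ UTR length over 11074 tested genes (x axis, bases on a log axis; y axis, percent of genes at or below that length), with each of the 8 genes marked on the curve. *Zp3*, *Zp1* and *Zp2* sit at the far left with 13, 34 and 49 bases, and *Astl*, with 877 bases, lies near the median of 909.

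The egg coat genes were among the most abundant RNAs of the GV oocyte. *Zp3* lies on the plus strand of chromosome 5 (GRCm38, 135980099 to 135988624) and encodes the glycoprotein that pairs with ZP2 in the filaments of the coat. It had 9989 and 8544 scaled TPM in GV, 943 and 2503 in MII, 2221 and 1007 in Btg4wt, and 7927 and 7596 in Btg4tm. Every GV and Btg4tm library was above every MII and Btg4wt library. Its rank among all listed genes ran from 5 to 142 across libraries.

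*Zp1* (chromosome 19, 10914287 to 10920632, minus strand) encodes the protein that crosslinks the filaments. Its 2 GV libraries had 2888 and 2129 scaled TPM and its 2 MII libraries 563 and 998. Btg4wt stood at 1073 and 702, and Btg4tm at 2191 and 1903. *Zp2* (chromosome 7, 120126772 to 120145291, minus strand), which encodes the sperm-binding protein cleaved by ovastacin, had 2059.8 and 2063 scaled TPM in GV and 298 and 701 in MII. With wild-type BTG4 it had 789.5 and 371, and with the mutant 1644 and 1624. For both genes the GV and Btg4tm libraries lay above all MII and Btg4wt libraries.

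In MII against GV the log2 fold change was −1.72 for *Zp1* (95% confidence interval −2.40 to −1.05, limma adjusted p = 0.00107). It was −2.17 for *Zp2* (−3.12 to −1.22, limma adjusted p = 0.00203) and −2.59 for *Zp3* (−3.64 to −1.53, limma adjusted p = 0.00137). *Zp3* was thus 6.01-fold lower in MII, *Zp2* 4.50-fold and *Zp1* 3.30-fold. The size of the fall depended on the MII library used. Without the first MII library the log2 values were −1.87 for *Zp3*, −1.54 for *Zp2* and −1.30 for *Zp1*, and without the second they were −3.28, −2.77 and −2.12, all still called. In Btg4tm against Btg4wt the log2 fold change was 1.23 for *Zp1* (0.56 to 1.91, limma adjusted p = 0.00834), 1.59 for *Zp2* (0.64 to 2.55, limma adjusted p = 0.0127) and 2.37 for *Zp3* (1.32 to 3.43, limma adjusted p = 0.00307). The intervals of the 3 genes overlapped in each comparison. Without the second Btg4wt library, *Zp1* and *Zp2* were no longer called (0.92, limma adjusted p = 0.0605, and 1.04, limma adjusted p = 0.0832). *Zp2* also lost its call without the first Btg4tm library, with 1.58 and a limma adjusted p of 0.0527.

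**Figure D2:**
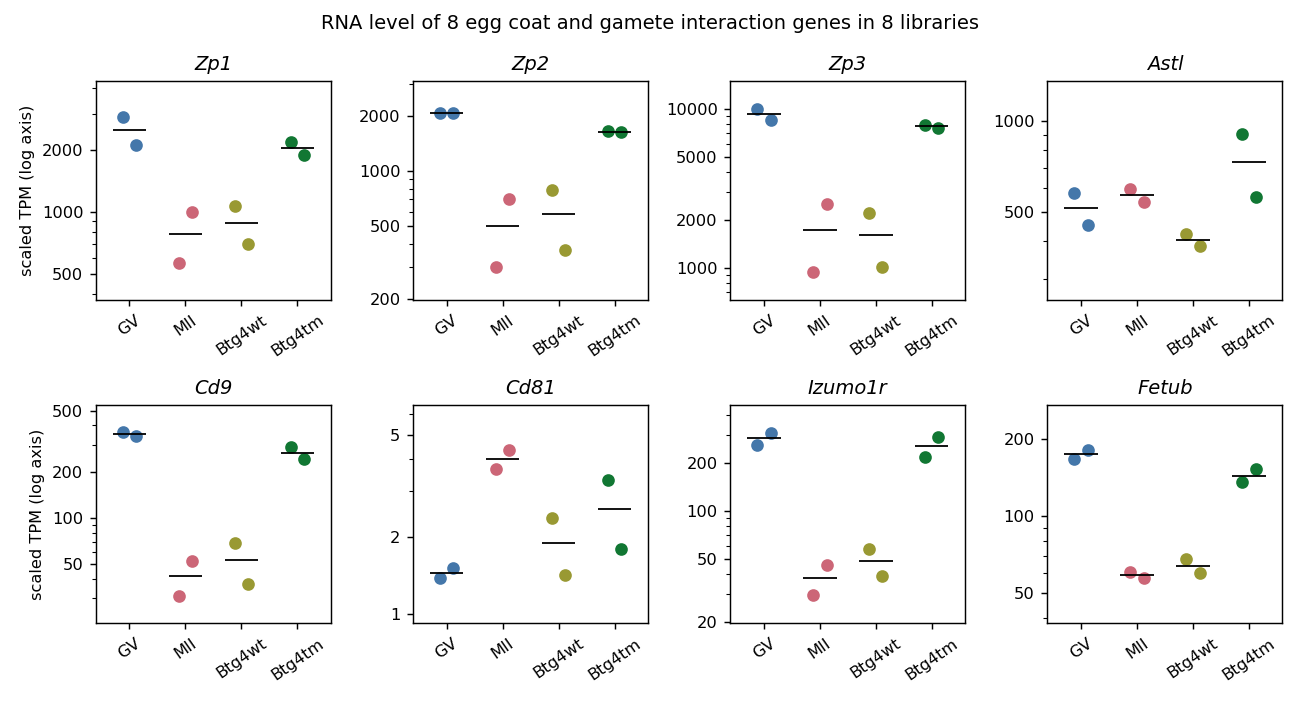
Scaled TPM (log axis) of the 8 genes in the 4 groups. Each point is a library and each line the mean of the 2 libraries of a group. For *Zp1*, *Zp2*, *Zp3*, *Cd9*, *Izumo1r* and *Fetub* the GV and Btg4tm points lie above all MII and Btg4wt points, whereas *Astl* and *Cd81* do not follow this order.

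The egg coat RNAs varied more between the libraries of MII and of Btg4wt than most RNAs that declined, but not all of them did in GV and none did in Btg4tm. In MII the second library exceeded the first by 1.41 on the log2 scale for *Zp3*, 1.23 for *Zp2* and 0.82 for *Zp1*. In Btg4wt the second library minus the first was −1.14, −1.09 and −0.61 for the same genes, so there the first was higher. Among 1853 other genes called lower in MII whose mean reached 10 scaled TPM, 98.6% had a smaller gap than *Zp3* in MII and 97.8% in Btg4wt. *Zp2* was similar, with 97.9% and 97.5%. *Cd9* and *Izumo1r* leaned to the same libraries, with log2 differences of 0.74 and 0.62 in MII and −0.86 and −0.55 in Btg4wt. The median difference of 3345 other declining genes was 0.04 in MII, with 55.3% higher in the second library. In Btg4wt it was −0.10, with 37.6% higher in the second library, against a median of −0.021 over all tested genes. *Fetub* had −0.08 and −0.17. In Btg4tm the share with a smaller gap was 15.5% for *Zp3*, 3.56% for *Zp2* and 49.8% for *Zp1*, and in GV it was 70.4%, 1.19% and 93.0%.

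Ratios within a library do not depend on scaling between libraries. *Zp3* over *Zp1* was 3.46 and 4.01 in GV and 3.62 and 3.99 in Btg4tm, and 1.67 and 2.51 in MII and 2.07 and 1.43 in Btg4wt. The ratio of *Zp3* to *Zp2* was 4.85 and 4.14 in GV, 4.82 and 4.68 in Btg4tm, 3.17 and 3.57 in MII, and 2.81 and 2.72 in Btg4wt. Both ratios were therefore lower in all 4 MII and Btg4wt libraries than in any GV or Btg4tm library. With 2 libraries against 2, no exact permutation test can pass a threshold of 0.05, and none is given for them. Together the 3 genes took 1.59% and 1.42% of the listed TPM in GV, 0.176% and 0.408% in MII, 0.405% and 0.201% in Btg4wt, and 1.17% and 1.06% in Btg4tm.

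**Figure D3:**
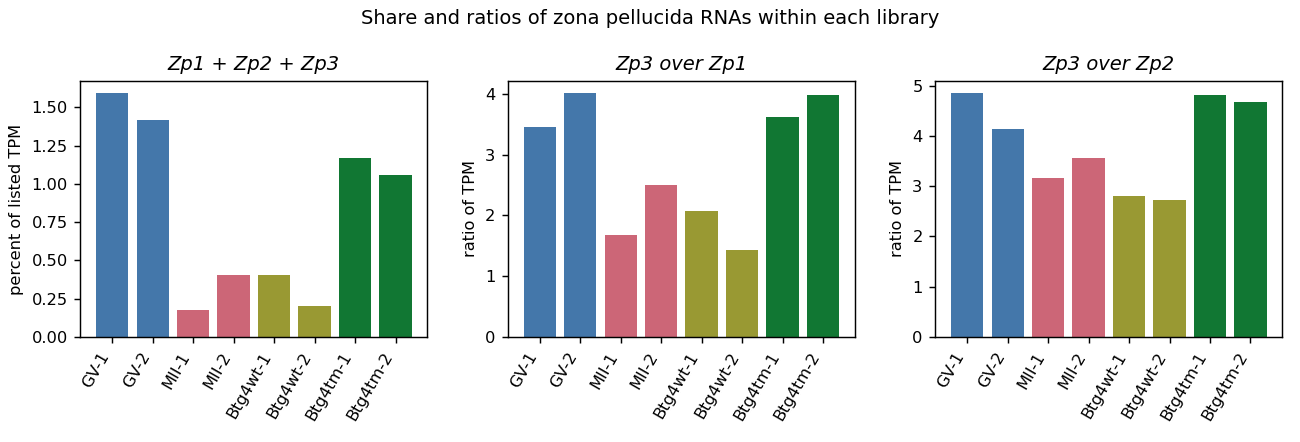
Left, summed *Zp1*, *Zp2* and *Zp3* as percent of the listed TPM of each library. Middle and right, TPM of *Zp3* divided by that of *Zp1* and of *Zp2*, with one bar per library coloured by group and axes from 0. The share is between 1.06 and 1.59 in GV and Btg4tm and at most 0.408 in MII and Btg4wt, and both ratios are lower in MII and Btg4wt.

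The protease gene and its inhibitor gene behaved differently. *Astl* (chromosome 2, 127338639 to 127357651, plus strand), which encodes ovastacin, had 576 and 454 scaled TPM in GV and 597 and 539.6 in MII. The log2 difference of 0.15 between MII and GV had a 95% confidence interval of −0.34 to 0.64 (limma adjusted p = 0.559), so a fall of the size seen for *Zp1* lay outside it in this scaling. It was −0.0085 with TPM as deposited and −2.06 with libraries scaled to the mitochondrially encoded genes, where the median of all genes was −1.74. *Astl* had 424 and 386 scaled TPM in Btg4wt and 901 and 559.5 in Btg4tm. These groups did not overlap, but the log2 fold change of 0.81 (limma adjusted p = 0.0131) stayed under the minimum of 1. Without the second Btg4tm library it was 1.15 (limma adjusted p = 0.00123). As the zona RNAs declined around it, *Astl* RNA rose from 0.280 and 0.220 of the *Zp2* level in the GV libraries to 2.01 and 0.769 in the MII libraries.

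*Fetub* (chromosome 16, 22918334 to 22939778, plus strand) was the most even of the 8 genes between replicate libraries. It had 167 and 182 scaled TPM in GV and 60.4 and 57.0 in MII. Btg4wt had 67.6 and 59.9, and Btg4tm 135 and 152, between the levels of MII and GV. Maturation changed it by −1.55 on the log2 scale (SE 0.11, limma adjusted p = 1.16e-05), and Btg4tm exceeded Btg4wt by 1.16 (SE 0.11, limma adjusted p = 8.5e-05). Quantile normalization brought the latter to 0.94, under the minimum. *Fetub* thus fell 2.94-fold while *Astl* did not pass the test, and *Fetub* over *Astl* went from 0.290 and 0.400 in GV to 0.101 and 0.106 in MII.

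On the membrane side, *Cd9* and *Izumo1r* had the steepest falls of the 8 genes. *Cd9* (chromosome 6, 125460266 to 125494791, minus strand), the tetraspanin that eggs need for fusion, had 364 and 344 scaled TPM in GV and 30.7 and 52.1 in MII. Its Btg4wt libraries had 68.3 and 37.2 and its Btg4tm libraries 289 and 242. The fall was 8.64-fold (log2 −3.11, −3.80 to −2.42, limma adjusted p = 4.63e-05) and the difference between the injected groups 5.16-fold (log2 2.37, 1.68 to 3.06, limma adjusted p = 0.000328). Exons of another annotated gene, Gm26728, cover 10.7% of the exonic bases of *Cd9*. Counting ignored strand, so reads from the shared bases cannot be assigned to either gene. The pseudogene *Cd9-ps* shares 14 of 1179 stretches of 50 bases.

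*Izumo1r* (chromosome 9, 14885814 to 14903949, minus strand) had 261 and 309.6 scaled TPM in GV, 29.4 and 45.6 in MII, 57.8 and 39.1 in Btg4wt, and 219 and 292 in Btg4tm. Mutant and GV libraries overlapped, and both lay far above the rest. The sperm receptor RNA fell 7.57-fold from GV to MII (log2 −2.92, −3.50 to −2.34, limma adjusted p = 2.59e-05) and was 5.23-fold higher in Btg4tm than in Btg4wt (log2 2.39, 1.81 to 2.97, limma adjusted p = 0.000124). *Cd9* and *Izumo1r* kept close to each other, with *Cd9* at 0.830 to 1.39 times the *Izumo1r* level in the 8 libraries.

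*Cd81* (chromosome 7, 143052739 to 143067934, plus strand), the second tetraspanin, was far less abundant. It had 1.37 and 1.51 scaled TPM in GV, 3.66 and 4.36 in MII, 2.36 and 1.42 in Btg4wt, and 3.33 and 1.79 in Btg4tm. MII lay above GV without overlap, while the injected groups overlapped each other. Between GV and MII the log2 difference was 1.03 (0.40 to 1.67, limma adjusted p = 0.0113), just over the minimum. It dropped below the minimum with TPM as deposited (0.93), without the first GV library (0.99, limma adjusted p = 0.0567) and without the second MII library (0.94, limma adjusted p = 0.0553), and it was −0.53 when libraries were scaled to the mitochondrially encoded genes. Between Btg4tm and Btg4wt it was 0.29 (−0.35 to 0.92, limma adjusted p = 0.424). On a log2(TPM + 1) scale such changes of low genes are understated, and 3.61% of the exonic bases of *Cd81* lie in exons of *R74862*.

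In GV oocytes the order of the means was *Zp3*, *Zp1*, *Zp2*, *Astl*, *Cd9*, *Izumo1r*, *Fetub* and *Cd81*. No neighbours in this order overlapped between GV libraries, although *Zp1* and *Zp2* were close, at 2129 and 2063 scaled TPM in the nearest libraries. In MII the means placed *Zp3* first at 1723 ± 1103 scaled TPM (SD, n = 2), then *Zp1* at 781 ± 308, *Astl* at 568 ± 40.7 and *Zp2* at 499 ± 285. Neighbours among these 4 overlapped between MII libraries. Within each MII library *Zp3* still exceeded *Zp1*, at 1.67 and 2.51 times its level. *Zp1* and *Astl* had 563 and 597 scaled TPM in the first MII library and 998 and 539.6 in the second. *Astl* over *Zp2* was 2.01 and 0.769. *Fetub*, at 58.7 ± 2.39, then exceeded, without overlap, *Cd9* at 41.4 ± 15.1 and *Izumo1r* at 37.5 ± 11.5, the reverse of their order in GV.

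**Figure D4:**
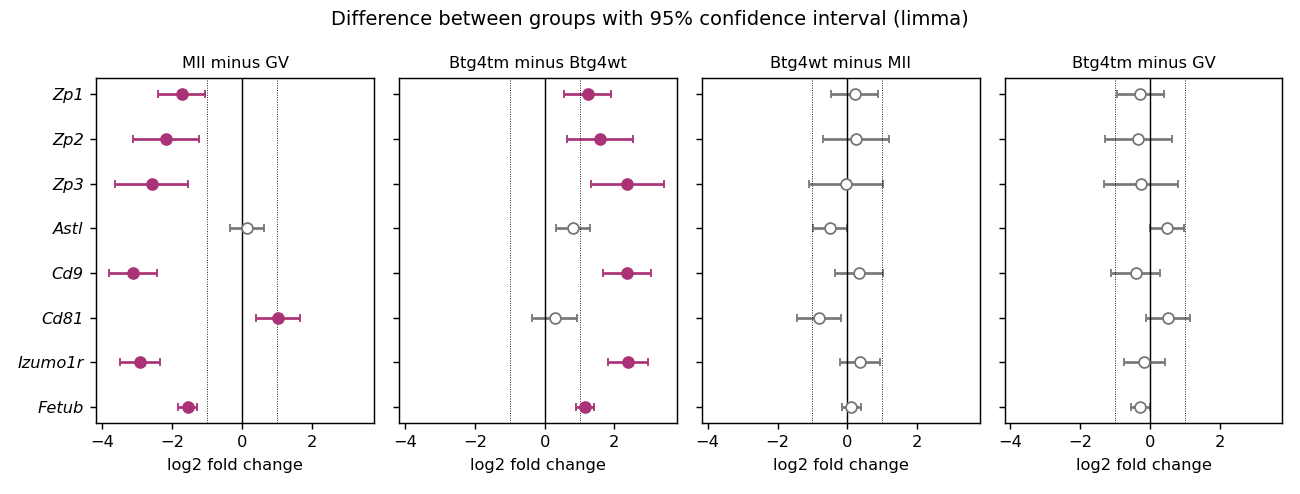
Log2 fold change (x axis) of the 8 genes in 4 comparisons, with 95% confidence intervals from limma. Filled purple points were called, open grey points were not, and dotted lines mark a log2 fold change of 1 in either direction. In MII minus GV 6 genes were called lower and *Cd81* higher, the same 6 were called higher in Btg4tm minus Btg4wt, and none was called in the other comparisons.

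Injection of wild-type *Btg4* RNA did not give a detectable difference from uninjected MII oocytes for any of the 8 genes. The log2 fold changes ran from −0.81 for *Cd81* to 0.37 for *Izumo1r*, and the smallest limma adjusted p was 0.33. The intervals were wide for the egg coat genes, for example −1.09 to 1.02 for *Zp3*. The share of all tested genes called in this comparison was 0%, while 1655 had an unadjusted p under 0.05, *Astl* and *Cd81* among them. Control and injected oocytes are also in separate sets of tables that list 17384 and 16448 genes, so that injection, handling and processing cannot be told apart in this comparison or the next.

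Mutant-injected oocytes at MII were near the GV level for these genes, slightly below it for the 6 that fell in maturation. None of the 8 was called between Btg4tm and GV, where 1.02% of tested genes were called higher and 1.02% lower. The log2 differences of the 6 ran from −0.42 for *Cd9* (−1.11 to 0.27, limma adjusted p = 0.393) to −0.17 for *Izumo1r*. *Astl* had 0.47 and *Cd81* 0.51 (−0.13 to 1.15, limma adjusted p = 0.259). *Fetub* had −0.28 (−0.54 to −0.015, limma adjusted p = 0.15) and *Zp3* −0.25 (−1.31 to 0.80, limma adjusted p = 0.751), so differences of more than 2-fold in *Zp3* are within its interval. Where a gene fell in maturation, its log2 difference between the injected groups can be set against its fall in the controls. That share was 71.6% for *Zp1*, 73.4% for *Zp2*, 91.8% for *Zp3*, 76.1% for *Cd9*, 81.7% for *Izumo1r* and 74.7% for *Fetub*. Over all genes called lower in MII the median was 76.5% and the quartiles 59.6% and 89.8%, so 5 of the 6 genes lay within the quartiles and *Zp3* just above.

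**Figure D5:**
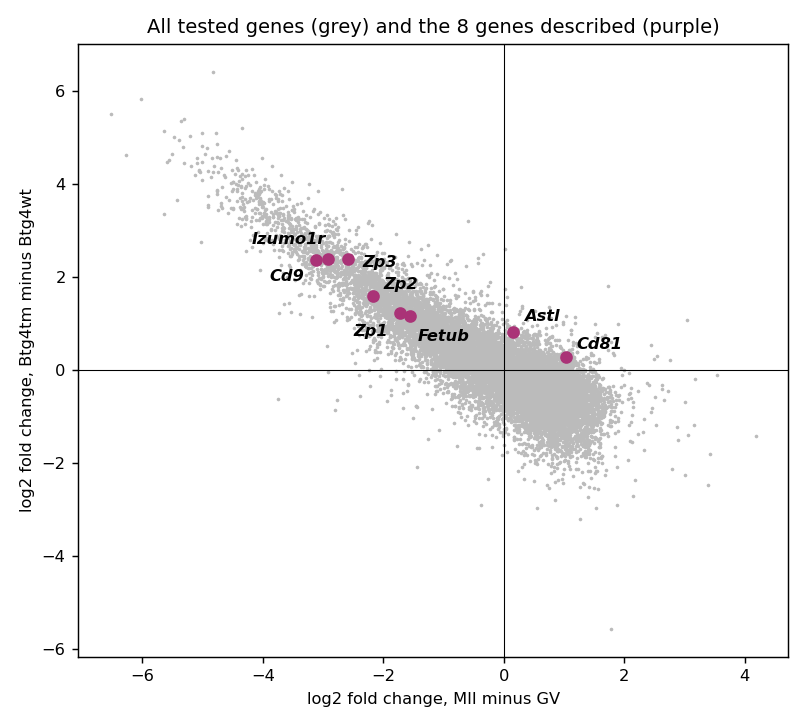
Log2 fold change of all 13968 tested genes (grey) and of the 8 genes (purple) in MII minus GV (x axis) and in Btg4tm minus Btg4wt (y axis), which share no library. The 6 falling genes lie in the upper left with the declining RNAs, from −3.11 to −1.55 on the x axis and from 1.16 to 2.39 on the y axis, while *Astl* (0.15 and 0.81) and *Cd81* (1.03 and 0.29) lie to the right of 0.

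In the scaling used, some genes of oocyte-secreted proteins and of coat processing moved the opposite way and some did not. Apart from the 3 zona genes, the egg coat list held 6 tested genes of these kinds. Of them 3 were called higher (12.5% of all tested genes) and none lower (24.0%) in MII. The median log2 fold change of the 6 was 0.62, against −0.0017 over all tested genes. *Oosp1* and *Oosp3*, oocyte-secreted proteins, had log2 fold changes of 1.32 and 1.41, and *Furin*, a proprotein convertase that can process zona precursors, had 1.48. With mutant BTG4 these 3 genes were called lower than with the wild type, with log2 values of −1.12, −1.05 and −1.29, where 7.94% of all tested genes were called lower, and the median of the 6 was −0.61, against 0.0078 over all genes. The other 3 were not called in either comparison. *Oosp2* had −0.84 in MII (limma adjusted p = 0.00032) and 0.64 between the injected groups, *C1galt1* −0.58 and 0.57, and *Mgat1* −0.087 and −0.18. All these log2 values, and those of the gene lists below, depend on the scaling between libraries. When libraries were scaled to the mitochondrially encoded genes, only 7 of all tested genes were called higher in MII. Only 69 were then called lower in Btg4tm than in Btg4wt. *Oosp1* rose from 2067 and 2572 scaled TPM in GV to 5771 and 5732 in MII, so that in MII it exceeded *Zp3* in both libraries.

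Of 19 tested cortical granule and exocytosis genes beside *Astl* and *Fetub*, 3 were called lower (24.0% of all tested genes) and 1 higher (12.5%) in MII, with a median of 0.26. *Napa*, an adaptor of the SNARE-disassembling ATPase, changed most in the list, with a log2 fold change of −2.20. *Calr* (calreticulin) had −1.21, *Rab3a*, a GTPase of regulated exocytosis, −1.07, and *Marcks*, an actin-linked kinase substrate, 1.03. In Btg4tm against Btg4wt only *Napa* was called, with 2.09 (limma adjusted p = 1.81e-05; 18.1% of all tested genes were called higher), and the median of the list was 0.0077. *Plat*, tissue plasminogen activator, was close to *Astl* in level, with 517 to 549.9 scaled TPM in GV and 606 and 551 in MII.

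Among 13 tested membrane genes beside *Cd9*, *Cd81* and *Izumo1r*, 4 were called higher (12.5% of all tested genes) and 2 lower (24.0%) in MII, with a median of 0.34. *Bsg* (basigin) fell by 1.93 on the log2 scale and was 1.53 higher in Btg4tm than in Btg4wt. The metalloprotease gene *Adam10* had 1.54 in MII, the integrin gene *Itga6* 1.29 and the ERM protein gene *Rdx* 1.22. *Itga6* was also called lower in Btg4tm than in Btg4wt, with −1.05, and the median of the list was −0.33. *Itga9*, an integrin alpha chain, was the other gene called higher, with a log2 fold change of 1.004, barely over the minimum of 1. It had 114 and 106 scaled TPM in GV and 228 and 216 in MII. *Igsf8*, a direct partner of CD9, was called lower with −1.19 but at a level under 2 scaled TPM in every library.

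JUNO needs a GPI anchor, and 23 genes of anchor synthesis and attachment were tested. Of these, 7 were called lower (24.0% of all tested genes) and 4 higher (12.5%) in MII, with a median of 0.20. *Pigc*, of the complex that starts anchor synthesis, had a log2 fold change of −2.73 and *Gpaa1*, of the transamidase, −1.61. *Pigl* had −1.90 and *Pigf* 1.57. With mutant BTG4, 2 genes of the list were higher (*Pigc* 1.82, *Gpaa1* 1.34) and 3 lower (*Pigt* −1.74, *Pgap1* −1.25, *Pigb* −1.03), where 18.1% and 7.94% of all tested genes were. *Pigt*, another subunit of the transamidase, had 2.41 and 4.42 scaled TPM in Btg4wt and 0.174 and 0.419 in Btg4tm. The median of the list between the injected groups was 0.15.

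Few sperm genes of the same interactions were listed. Of 18 genes, 7 were listed and 4 were tested, and none of these was called in any of the 4 comparisons by limma. Of all tested genes, 24.0% were called lower and 12.5% higher in MII. Between the injected groups 18.1% were called higher and 7.94% lower in Btg4tm. Between Btg4tm and GV the shares were 1.02% each way, and between Btg4wt and MII 0%. The median of the 4 sperm genes from GV to MII was 0.27. *Izumo1*, the ligand of JUNO, *Spaca6* and *Acr* were not listed. *Spam1*, a sperm hyaluronidase gene, was the highest, with 24.5 to 57.1 scaled TPM. Between MII and GV its log2 fold change was 0.83 (limma adjusted p = 0.00338), under the minimum of 1. Its 41.6 and 57.1 in MII overlapped the levels of *Cd9* and *Izumo1r* there.

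For each gene whose mean reached 10 scaled TPM, the 3 most similar of 5986 other genes at or over that mean were found by Euclidean distance between centred log2 levels over the 8 libraries. The nearest to *Zp3* were *Dcpp2* (0.51), *Ddx41* (0.64) and *Pinlyp* (0.69), against a median distance of 4.10. *Zp1* was closest to *Naip1* (0.34), *Tmbim4* and *Rnf7* (both 0.43), and *Zp2* to *Ergic3* (0.40), *Mtfr1l* (0.55) and *Ost4* (0.61). *Cd9* had *Cyc1* (0.34), *Rpl5* (0.37) and *Spcs1* (0.41) as neighbours, and *Izumo1r* had *Cfap58* (0.29), *Ube2a* and *Derl3* (both 0.38). *Fetub* ran closest to *Prpf38a* (0.13) and *Psmd14* (0.19). *Astl* was nearest to *Gle1* (0.27), *Tex19.1* (0.31) and *Thg1l* (0.40). Among the 8 genes themselves, *Cd9* and *Izumo1r* were the closest pair (0.64), followed by *Cd9* and *Zp3* (0.76) and by *Zp1* and *Zp2* (0.80).

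*Figla*, the basic helix-loop-helix factor that drives the zona genes in growing oocytes through E-boxes, was itself one of the RNAs that declined. It had 113 and 133 scaled TPM in GV, 8.81 and 9.21 in MII, 11.9 and 11.5 in Btg4wt, and 87.3 and 87.8 in Btg4tm. It changed by −3.63 on the log2 scale in maturation and differed by 2.80 between the injected groups. Fully grown oocytes make little new RNA, so these levels are not a measure of promoter activity. The letters CAGGTG, a form of E-box, were searched on both strands from 250 bases before to 50 bases after the start. The RefSeq sequences for GRCm38.p6 held 8 windows for 6 of the genes. CAGGTG was in a window of 5 of these 6 genes. Counted by window, it was in 5 of 8, against 20.2% of 32851 windows in all. *Zp1* and *Zp2* had no entry. The 4 windows with CAGGTG on either strand within 100 bases before the start are shown, with these letters in capitals. They include that of *Astl*, which was not called in maturation. Other forms of E-box were not searched and are not marked.
Zp3: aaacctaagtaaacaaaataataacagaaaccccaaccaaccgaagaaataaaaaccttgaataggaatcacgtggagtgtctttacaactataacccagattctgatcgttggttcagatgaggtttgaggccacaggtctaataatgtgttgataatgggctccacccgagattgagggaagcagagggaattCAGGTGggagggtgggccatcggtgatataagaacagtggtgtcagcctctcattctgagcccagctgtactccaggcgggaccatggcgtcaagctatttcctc
Izumo1r: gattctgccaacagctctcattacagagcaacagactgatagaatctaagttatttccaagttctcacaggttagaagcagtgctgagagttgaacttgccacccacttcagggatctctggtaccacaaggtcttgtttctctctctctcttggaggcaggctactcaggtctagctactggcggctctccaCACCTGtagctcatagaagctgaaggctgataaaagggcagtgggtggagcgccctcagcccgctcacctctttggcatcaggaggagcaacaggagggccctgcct
Cd9: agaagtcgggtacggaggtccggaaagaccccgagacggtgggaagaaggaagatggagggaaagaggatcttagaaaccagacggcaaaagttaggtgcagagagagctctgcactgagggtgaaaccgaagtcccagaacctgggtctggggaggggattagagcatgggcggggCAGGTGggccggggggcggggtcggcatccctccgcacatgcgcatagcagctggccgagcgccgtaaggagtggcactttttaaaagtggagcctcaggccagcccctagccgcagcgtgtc
Astl: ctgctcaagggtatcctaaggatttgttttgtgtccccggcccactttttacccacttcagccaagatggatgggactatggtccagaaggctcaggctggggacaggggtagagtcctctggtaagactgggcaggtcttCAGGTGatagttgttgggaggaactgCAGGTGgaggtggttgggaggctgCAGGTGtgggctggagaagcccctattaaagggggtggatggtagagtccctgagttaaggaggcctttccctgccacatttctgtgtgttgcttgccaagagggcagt

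The window of *Zp3* is chr5:135979855-135980154 on the plus strand, with CAGGTG starting 55 bases before the start. That of *Izumo1r* is chr9:14903718-14904017 on the minus strand, with CACCTG, the same motif on the other strand, 57 bases before the start. *Cd9* has its window at chr6:125494711-125495010 on the minus strand and CAGGTG 73 bases before the start. The second of 2 windows of *Astl*, chr2:127341386-127341685 on the plus strand, holds 3 copies, which start 109, 83 and 59 bases before the start. In *Fetub* CACCTG lies 26 bases after the start of 1 of 2 windows. A match is not evidence of binding.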

How the data were processed

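TPM of polyadenylated RNA from 8 Smart-seq2 libraries were used, grouped by their labels. The authors trimmed reads with Trim Galore 0.6.10, aligned them to GRCm38 with HISAT2 2.2.0 and counted them on GENCODE vM25 exons with featureCounts 2.0.6, without strand and with a mapping quality of at least 10. They deposited TPM per gene symbol, with no counts, so the depth and counting error are unknown and precision comes only from the 2 libraries of each group. The protocol names 3 samples per group, and 2 were analysed here. The authors' own test was DESeq2 on counts, which the unit does not allow here.

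TPM were divided by median-of-ratios factors (0.947765 to 1.10707), transformed to log2(TPM + 1) and tested with limma 3.58.1 in R 4.3.3 (lmFit, contrasts, eBayes with trend, no block). The fit covered all 8 libraries and the 13968 genes that reached 1 TPM in 2 or more libraries, and genes absent from one set of tables (1422 and 486) were left out. The script was tested on simulated data. Transcript ends, gene positions and overlaps came from GENCODE M21 on GRCm38, using for each gene the coding transcript ranked best by APPRIS tag, support level, CCDS and then length, and promoters from RefSeq. Other settings tried were unscaled TPM, quantile normalization, scaling to mitochondrial genes, a pseudocount of 0.1, no filter or one at 5 TPM, only the 4 libraries compared, a replicate block, eBayes without trend, other thresholds, and leaving out each library.

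The genes and lists were chosen with earlier results of these data known. Named genes were the 8 members, at most 4 called genes of each list with the largest changes in either comparison, and the 3 nearest genes in pattern, of which 1 is not reported here. *Btg4*, *Figla*, *Plat*, *Krt8*, *Inha*, *Cyp19a1*, *Kitl*, *Nr5a2*, *Star*, *Spam1*, *Igsf8*, *Itga9*, *Pigb*, *Oosp2*, *C1galt1* and *Mgat1* were named after their values were seen.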

Additional observations from a re-analysis of the deposited data

How the results depend on the processing

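Among the log2 fold changes of the 8 genes under other settings, 573 kept their direction and side of the threshold, 17 reversed, 9 lost a call and 5 gained one. Most reversals were of values near 0. The setting with most effect scaled libraries to the mitochondrially encoded genes, which rose in MII relative to the other listed RNAs. It moved the median log2 fold change of all genes to −1.74 between MII and GV and to 0.875 between the injected groups. It called 11403 genes lower in MII (3351 as reported), 6089 higher in Btg4tm than in Btg4wt (2534), 69 between Btg4wt and MII (0) and 3010 between Btg4tm and GV. *Cd9* was then the 1 gene of the 8 called between Btg4tm and GV (−1.05). *Astl* went to −2.06 and *Cd81* to −0.53 between MII and GV, and to 1.90 and 1.03 between the injected groups. In Btg4wt against MII *Zp3* went to 0.46 and *Astl* to 0.0073, and in Btg4tm against GV *Astl* to −0.16.

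With TPM as deposited *Astl* was at −0.0085 between MII and GV, and 23.6% of the genes called there and 21.8% of those between Btg4tm and GV were higher (34.3% and 50.2% as reported). Quantile normalization gave 53.4% and 61.5%, and 53.9% between the injected groups (69.6% as reported). For Btg4tm against GV, 1591 genes were called with no minimum fold change and 108 at an adjusted p under 0.01.

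Leaving out each library in turn, with a lone library assumed to vary like the others, gave 108 to 341 calls between Btg4tm and GV, the lowest without the second GV library. *Astl* between MII and GV ranged from −0.017 (without the second GV library) to 0.32. In Btg4wt against MII *Zp1* ranged from −0.20 to 0.62, *Zp2* from −0.37 to 0.86, *Zp3* from −0.74 to 0.66 and *Cd9* from −0.095 to 0.76, with reversed signs for *Zp1* (−0.20 and −0.088), *Zp2* (−0.37 and −0.29) and *Cd9* (−0.042 and −0.095) without the first MII or first Btg4wt library, and for *Zp3* (0.66 and 0.54) without the second. *Cd81* between the injected groups ranged from −0.034 (without the first Btg4tm library) to 0.60, and *Izumo1r* in Btg4tm against GV from −0.39 to 0.021, again without the first. The cause of these moves was not tested.

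Libraries with the same replicate number did not deviate together (r from −0.054 to 0.055 over pairs of groups), so the numbers do not pair them. With the replicate number as a block, 1 gene was called between Btg4wt and MII, 3339 genes were lower in MII and 2527 higher in Btg4tm than in Btg4wt. The block changed no call of the 8 genes.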

Other observations

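Since the egg coat genes share very short 3′ UTRs, other genes of that kind were looked at, a group chosen after the values of the zona genes were known. The 187 other tested genes with a 3′ UTR of 1 to 49 bases had a median log2 difference of −1.11 between MII and GV, against 0.04 for all others, and 51.9% of them were called lower, against 23.8%. In Btg4tm against Btg4wt their median was 0.80, against 0.0078 over all tested genes, and 47.1% were called higher, against 18.1%. Whether 3′ UTR length bears on these differences was not tested.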
